A study of Mus musculus with 36 samples.

Results

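The 9 genes described here are factors by which a skeletal muscle precursor is recognised: the transcription factors Myod1, Myf5, Pax7, Msc, Six4, Mef2a and Mef2d, the adhesion molecule Cdh15 and the intermediate filament gene Des. They were taken as a fixed list of names, not by their values, from the 49315 genes counted in each library, and all 9 were present in the tables. The cells were C2C12, an established line of dividing mouse myoblasts, grown on coverslips in sealed experiment units, with 3 units per group. Cells were kept in space with no gravity, in space with gravity or on land, without nanoceria or with it, which made 6 groups. Nanoceria are cerium oxide nanoparticles, given here at 100 µg/ml, coated with serum, in the medium reservoir. Groups with nanoceria are called treated and those without it untreated. All groups were fixed with RNAlater inside their units. The ground run followed the flight as a separate experiment, so space against land cannot be told apart from one run against the other. The study asked how the nanoparticles act on muscle cells under changed gravity and radiation.

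In muscle precursors the basic helix-loop-helix factors Myf5 and Myod1 commit cells to the myogenic lineage by binding E-boxes, DNA words of the form CANNTG, together with E-protein partners. The paired-box factor Pax7 marks satellite cells and the cultured myoblasts derived from them. Six4 acts upstream of the myogenic factors, the Mef2 proteins work beside them on muscle genes, and Msc is a repressor that competes for the same sites. When myoblasts stop dividing and fuse, Myog and the contractile genes come on.

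E-boxes were looked for in the 250 bases before the RefSeq start of each gene (RefSeq, GRCm38.p6), because these factors bind that word. The word reads the same on both strands, and overlapping words were each counted. A sequence was held for 7 of the 9 genes, and not for Myod1 and Msc. Among all 32851 promoters of the same length, 66.2% held at least 1 E-box. Des and Cdh15 held E-boxes, and Mef2d, Pax7, Mef2a, Myf5 and the 2 listed starts of Six4 held none in this window. The promoters of the 2 most abundant genes, Myf5 and Des, and that of Cdh15 with the most E-boxes are shown 5′ to 3′, with E-boxes in capitals.
Myf5, chr10:107486135-107486384, minus strand: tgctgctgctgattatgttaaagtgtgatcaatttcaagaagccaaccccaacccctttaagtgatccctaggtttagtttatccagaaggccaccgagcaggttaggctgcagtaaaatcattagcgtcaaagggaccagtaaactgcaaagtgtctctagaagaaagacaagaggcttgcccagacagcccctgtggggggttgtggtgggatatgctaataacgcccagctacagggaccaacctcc
Des, chr1:75360042-75360291, plus strand: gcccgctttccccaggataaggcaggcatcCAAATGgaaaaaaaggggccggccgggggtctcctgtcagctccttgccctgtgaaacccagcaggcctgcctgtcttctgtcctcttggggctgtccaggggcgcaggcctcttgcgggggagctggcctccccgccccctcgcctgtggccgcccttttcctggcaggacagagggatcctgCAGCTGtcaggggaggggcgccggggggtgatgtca
Cdh15, chr8:122848124-122848373, plus strand: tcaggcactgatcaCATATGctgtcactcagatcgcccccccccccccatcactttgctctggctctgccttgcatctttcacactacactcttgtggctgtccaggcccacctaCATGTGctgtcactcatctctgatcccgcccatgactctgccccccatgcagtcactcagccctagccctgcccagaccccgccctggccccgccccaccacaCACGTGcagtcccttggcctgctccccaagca
The Des promoter held 2 E-boxes, at positions -220 and -36 from the start, and 31.8% of all promoters held 2 or more. The word at -36, CAGCTG, occurred in 13.0% of all promoters. The Cdh15 promoter held 3 E-boxes, at -236, -135 and -32, and 12.2% of all promoters held 3 or more. A match describes the letters only.

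Per gene length, Myf5 and Des were far above the other 7 genes, and Myod1, Pax7, Cdh15 and Msc were close to absent. In the 17 larger libraries the median level of Myf5 was 24.3 RPKM (reads per kilobase of exon and scaled library size), with a range of 9.59 to 78.2. Des, the muscle intermediate filament protein, had a median of 23.1 RPKM and a range of 7.96 to 115. These neighbours in the order did not separate, since Myf5 was above Des in 10 of 17 libraries. Six4 followed at a median of 2.72 RPKM, below Des in 16 of 17 libraries. Mef2d at 1.44 RPKM and Mef2a at 1.16 RPKM came next, and Mef2d was above Mef2a in only 6 of 17 libraries although its median was higher. Six4 was above Mef2d in 9 of 17 libraries, so the order of Six4, Mef2d and Mef2a lay within the spread between libraries. Cdh15, or M-cadherin, which joins myoblasts to each other, had a median of 0.245 RPKM, Myod1 0.0851 RPKM and Pax7 0.0544 RPKM, and the median of Msc was 0.

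**Figure D1:**
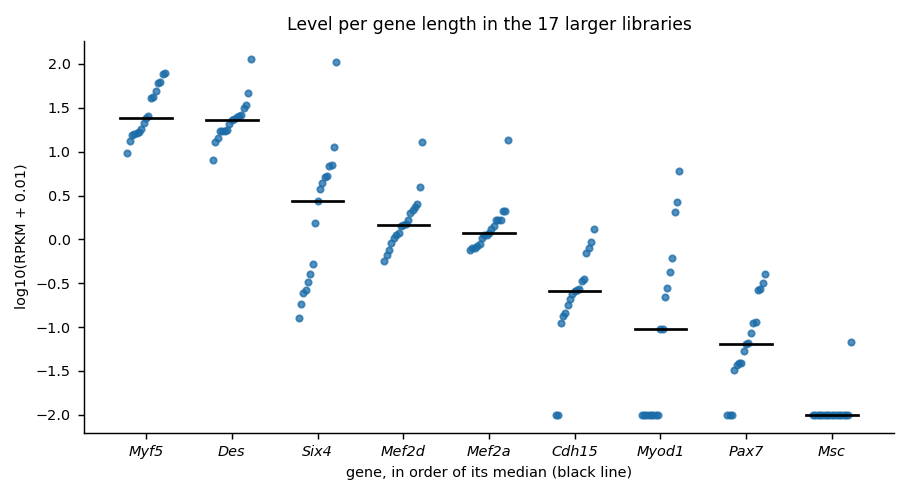
Level per gene length of the 9 genes, as log10(RPKM + 0.01), with a point for each of the 17 larger libraries sorted by value and a line at the median. Myf5 and Des stand together at the top, Six4 spreads from 0.118 to 105 RPKM, and most Msc points lie at 0.

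Total counts ranged from 2986628 to 11378178 in 17 libraries, whereas replicate 3 of the treated group in space with gravity had only 23858, spread over 4880 genes. In that library 3 counts, taken as the smallest level a library can show, equalled 35.7 CPM (counts after scaling of the libraries to one size), against 0.193 to 1.11 CPM in the others, so it could not show most of the 9 genes at their level elsewhere. A set of 6 abundant genes (Lars2 and 5 genes with predicted names) took 24.5% to 76.3% of the counts in the 17 larger libraries, with medians of 33.9% in space with gravity, 49.8% in space without gravity and 67.1% on land. The 7 genes with enough counts for testing were Myod1, Myf5, Six4, Mef2a, Mef2d, Cdh15 and Des, among 11558 genes tested. Pax7 and Msc did not pass the filter on low counts.

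Myod1 (chr7:46376474-46379099, plus strand, GRCm38.p6), a determination factor and a usual marker of C2C12 cells, had only 99 counts in all 18 libraries together and none in 8 of them. Without gravity in space, the untreated libraries had 0, 3 and 0 counts and the treated ones 26, 0 and 0. With gravity they had 6, 0 and 0 against 2, 1 and 1. The land cultures gave 8, 3 and 34 counts untreated and 0, 0 and 15 treated. More than 3 counts were found in 5 of 18 libraries, 3 of them from land, and land without nanoceria, replicate 3, alone held 34.3% of all Myod1 counts. In these bulk libraries fewer cells with a transcript and less transcript per cell cannot be told apart.

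The related factor Myf5 (chr10:107482908-107486134, minus strand) carried nearly all counts of the 4 myogenic helix-loop-helix genes Myf5, Myod1, Myog and Myf6. Its share of them was between 67.8% and 100% in the 17 larger libraries, with a median of 99.5%. The lowest shares were 67.8% in replicate 3 of the untreated land group (Wilson 95% interval 59.8% to 74.9%) and 78.9% (73.4% to 83.6%) in replicate 1 of that group. The next was 89.1% (84.6% to 92.3%) in replicate 1 of the treated group in space without gravity. Myod1 made up most of the rest in the lowest and the last of these libraries, and Myog in replicate 1 of the land group. These intervals cover counting error only.

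Pax7 (chr4:139737062-139833528, minus strand) had 52 counts in all. Untreated libraries had 3, 1 and 0 counts without gravity, 2, 3 and 2 with gravity and 13, 6 and 0 on land. Treated libraries had 3, 0 and 1 without gravity, 2, 2 and 0 with gravity and 4, 3 and 7 on land. Only land libraries exceeded 3 counts, in 4 of 6, and the median level was 1.51 CPM on land against 0.169 CPM in space without gravity and 0.208 CPM in space with gravity. With the smallest library left out Pax7 passed the filter, and its log2 fold change was -2.45 in space with gravity against land (adjusted p = 0.098, edgeR) and -2.38 in space without gravity against land (adjusted p = 0.12, edgeR). Neither passed the threshold of 0.05. Msc (chr1:14753346-14755992, minus strand), also called MyoR, had 1 count in 18 libraries, in replicate 1 of the treated group in space without gravity. Of the exon bases of Msc, 21.2% lie opposite the antisense gene Gm9947, which had 0 counts.

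**Figure D2:**
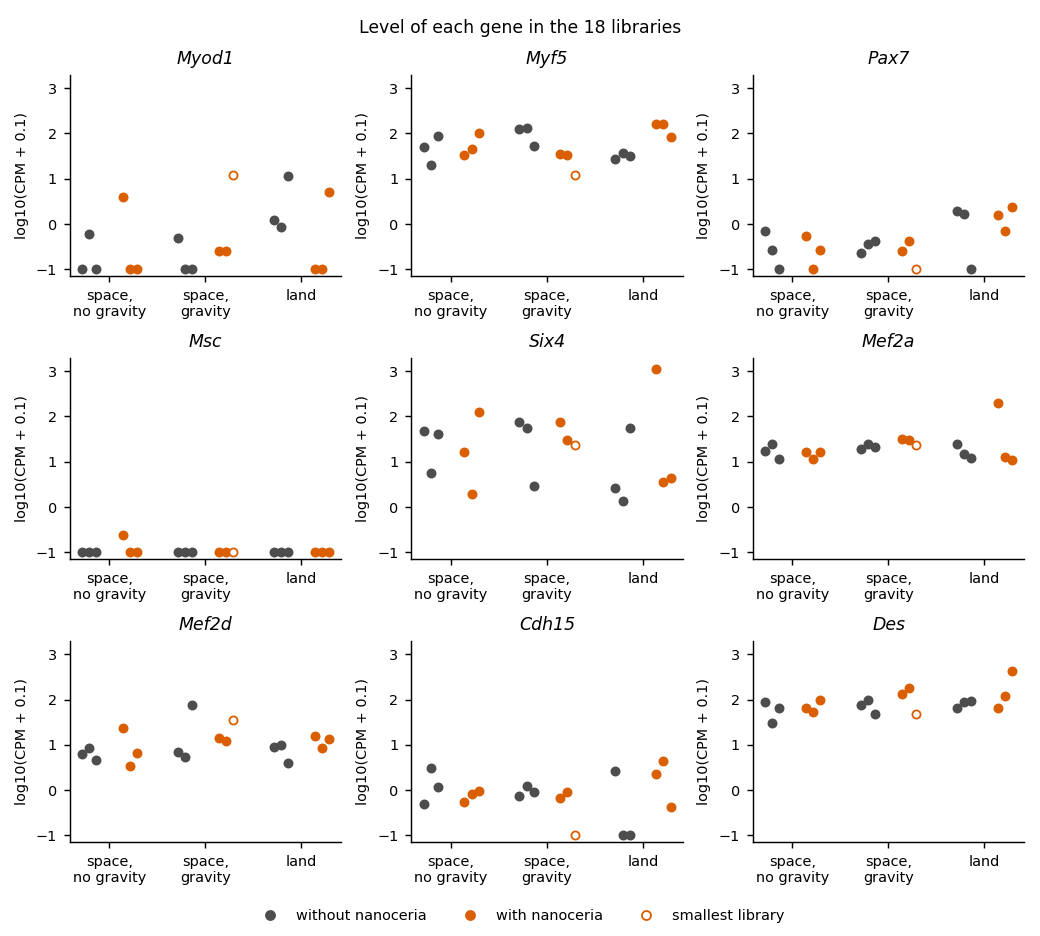
Level of each of the 9 genes in the 18 libraries, as log10(CPM + 0.1), by regime, with grey points without nanoceria, orange points with it, and the open point for the smallest library. Myf5 and Des lie near 2 on this scale in most libraries, and single land libraries stand above the other larger ones for Six4, Mef2a, Myod1 and Des.

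Myf5 was lower in the 2 larger treated libraries than in the untreated ones in space with gravity, and higher in every treated library on land. On land its level was 27.4, 37.6 and 31.9 CPM in the untreated libraries against 160, 163 and 84.6 CPM in the treated ones, from 195, 147 and 97 counts and from 433, 813 and 260 counts. All 3 land libraries with nanoceria were above all 3 without it. In space with gravity it was 125, 129 and 52.7 CPM in the untreated libraries against 34.6, 34.1 and 11.9 CPM in the treated ones, the last from 1 count in the smallest library. Here the 2 larger libraries with nanoceria were below all those without it. The smallest library, where 3 counts equalled 35.7 CPM, could not show such a level. Without gravity in space it was 50.5, 20.0 and 87.7 CPM in the untreated libraries against 33.2, 44.5 and 102 CPM in the treated ones, and these groups overlapped. As group means, Myf5 was at 32.3 ± 5.1 CPM (SD, n = 3) on land without nanoceria and 136 ± 44.5 CPM (SD, n = 3) with it.

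None of these Myf5 differences passed the threshold over all genes. The log2 fold change with nanoceria was 2.07 ± 0.63 (SE) on land (unadjusted p = 0.0039, adjusted p = 0.314, edgeR) and -1.77 ± 0.64 in space with gravity (unadjusted p = 0.013, adjusted p = 1, edgeR). In space without gravity it was 0.19 ± 0.60. The test of whether the nanoceria effect differed between regimes gave an unadjusted p of 0.0017 and an adjusted p of 0.719 for Myf5 (edgeR), and 0% of all tested genes passed it. Without the smallest library the values were 2.17 on land and -1.53 in space with gravity, and the test of the difference gave an adjusted p of 0.764. The DESeq2 test, an alternative, put Myf5 past the threshold on land (log2 fold change 2.04, adjusted p = 0.024).

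The same libraries gave differences of opposite sign for Myf5 between space with gravity and land. Without nanoceria the log2 fold change was 1.66 (adjusted p = 0.146, edgeR), and with nanoceria -2.18 (adjusted p = 0.108, edgeR). These comparisons share their libraries with the nanoceria comparisons and add no separate evidence. DESeq2 called the second (log2 fold change -2.40, adjusted p = 0.0035). Averaged over nanoceria, Myf5 differed little between regimes, by -0.26 ± 0.43 for space with gravity against land and -0.23 ± 0.43 for space without gravity against land.

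With the smallest library left out, CPM ranges of the nanoceria groups did not overlap on land for Myf5 alone among the 7 tested genes, against 10.1% of all tested genes. In space with gravity they did not overlap for Myf5, Mef2a and Des, against 20.4% of all tested genes. Separation in both regimes in opposite directions was found for Myf5 and for 0.735% of all tested genes. These 3 counts were made after the values of Myf5 had been seen.

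**Figure D3:**
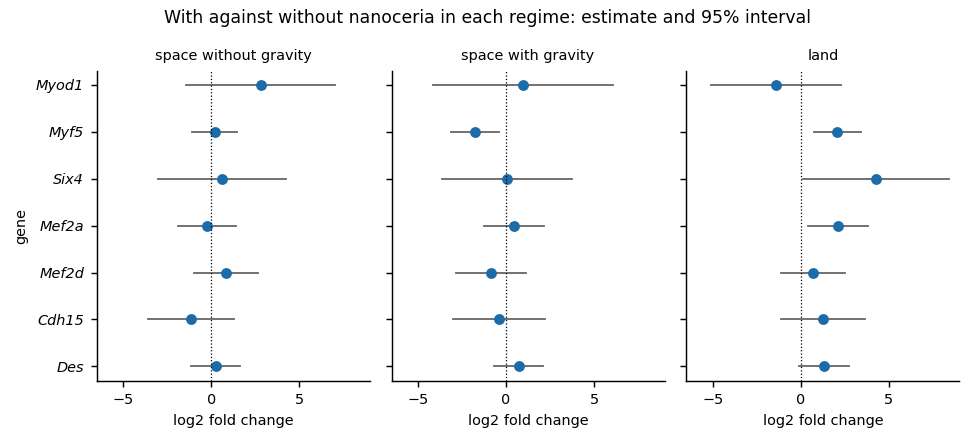
Log2 fold change with against without nanoceria in each regime for the 7 tested genes, with the 95% interval of the fit. Myf5 is below 0 in space with gravity (-1.77) and above 0 on land (2.07), and no value passed the adjusted threshold.

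The ratio of Myf5 to Des within a library does not depend on how libraries are scaled. Per gene length it was 2.91, 2.37 and 1.95 in space with gravity without nanoceria, and 0.482 and 0.349 in the 2 larger libraries with nanoceria. On land it was 0.746, 0.768 and 0.622 in the untreated libraries against 4.48, 2.49 and 0.352 in the treated ones. The groups stayed apart in space with gravity, but on land replicate 3 with nanoceria fell below the libraries without it. In the larger libraries of space with gravity Myf5 and Des were each already apart, in opposite directions. The ratio there adds no separate evidence, and the share of such ratios over all genes was not counted. That library had the highest Des level of all. Without gravity in space the ratio was 1.05, 1.20 and 2.46 in the untreated libraries against 0.930, 1.49 and 1.91 in the treated ones, with overlap.

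Des (chr1:75360329-75368579, plus strand) was detected in every library. Its level was 86.6, 29.9 and 64.2 CPM in space without gravity without nanoceria and 64.3, 53.8 and 96.5 CPM with it. In space with gravity it was 77.3, 98.2 and 48.7 CPM in the untreated libraries against 129, 176 and 47.7 CPM in the treated ones, the last from 4 counts. On land it was 66.1, 88.2 and 92.3 CPM in the untreated libraries against 64.4, 118 and 433 CPM in the treated ones. The land groups overlapped, and 433 CPM in replicate 3 was 2.46 times the next highest larger library. Averaged over regimes Des was 0.76 ± 0.38 higher with nanoceria on the log2 scale (adjusted p = 0.761, edgeR), and in space without gravity against land it differed by -0.98 ± 0.47 (adjusted p = 0.205, edgeR). DESeq2 called the second at -1.32 (adjusted p = 0.035). In that DESeq2 comparison 1524 genes passed, and the median over all genes was -0.28, against -0.02 in edgeR. Leaving out land with nanoceria, replicate 3, turned the space with gravity against land value from -0.44 to 0.17.

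Six4 (chr12:73099609-73113456, minus strand), a homeobox factor, varied most between libraries of a group among the abundant genes. On land it had 18, 5 and 173 counts in the untreated libraries against 3074, 17 and 13 in the treated ones, or 2.53, 1.28 and 56.8 CPM and then 1138, 3.41 and 4.23 CPM. Replicate 1 with nanoceria was 9.25 times the next highest library. The level without gravity in space was 47.9, 5.54 and 40.5 CPM in the untreated libraries against 16.6, 1.86 and 123 CPM in the treated ones. In space with gravity it was 75.2, 55.9 and 2.80 CPM in the untreated libraries against 75.5, 29.5 and 23.8 CPM in the treated ones, the last from 2 counts. All pairs of groups with and without nanoceria overlapped. The biological coefficient of variation of Six4 in the fit was 1.29, higher than in 97.5% of tested genes, and only Myod1 at 1.69 was higher among the 7. The log2 fold change with nanoceria on land was 4.25 ± 1.97 (adjusted p = 0.474, edgeR), and -2.39 when land with nanoceria, replicate 1, was left out. With no filter on low counts and that library kept it was 4.19 ± 0.84 and passed (adjusted p = 0.00014, edgeR). The value itself hardly moved, and the standard error fell from 1.97 to 0.84.

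Mef2a (chr7:67231163-67372858, minus strand), a partner of the myogenic factors, also stood out in that library and was at 11.1 to 31.0 CPM in the other 16 larger ones. On land its level was 24.0, 15.1 and 12.2 CPM in the untreated libraries against 199, 12.8 and 11.1 CPM in the treated ones, and replicate 1 with nanoceria was 6.42 times the next highest larger library. Without gravity it was 17.05, 24.2 and 11.4 CPM in the untreated libraries against 16.5, 11.5 and 16.3 CPM in the treated ones. In space with gravity it was 19.1, 24.5 and 20.9 CPM in the untreated libraries against 31.0, 30.9 and 23.8 CPM in the treated ones, the last from 2 counts. The 2 larger libraries with nanoceria there were above the 3 without it. The log2 fold change with nanoceria was 0.46 ± 0.80 in space with gravity and 2.11 ± 0.80 on land (adjusted p = 0.38, edgeR), and the land value became -0.51 without replicate 1 with nanoceria. That library held 6720185 counts in total and had the lowest scaling factor, 0.403.

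Mef2d (chr3:88142372-88172086, plus strand) was lifted in a different library. Its level was 6.96, 5.41 and 76.1 CPM in space with gravity without nanoceria, from 108, 63 and 462 counts, and 13.8, 11.96 and 35.7 CPM with it, the last from 3 counts. Replicate 3 without nanoceria was 3.23 times the next highest larger library. Without gravity it was 6.22, 8.39 and 4.46 CPM in the untreated libraries against 23.6, 3.34 and 6.60 CPM in the treated ones, and on land 8.85, 9.97 and 3.94 CPM and then 15.2, 8.61 and 13.0 CPM. Space without gravity against space with gravity differed by -1.36 ± 0.64 (unadjusted p = 0.046, adjusted p = 0.834, edgeR). Leaving out 1 library at a time moved this value between -1.95 and -0.25. Exon bases were shared with genes on the other strand, 302 in Mef2a with Lysmd4, 531 in Mef2d with 1700113A16Rik and 220 in Des with Gm15179. Over their whole length these other genes had 93, 16 and 33 counts in all libraries together. Reads within the shared bases, here and in Msc, were not counted separately.

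The ratio of Mef2a to Mef2d per gene length had a median of 1.05 in the 17 larger libraries. It was 5.35 in land with nanoceria, replicate 1, and 0.112 in space with gravity without nanoceria, replicate 3. The ratio was between 1.04 and 1.17 in all 3 libraries of space without gravity without nanoceria.

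**Figure D4:**
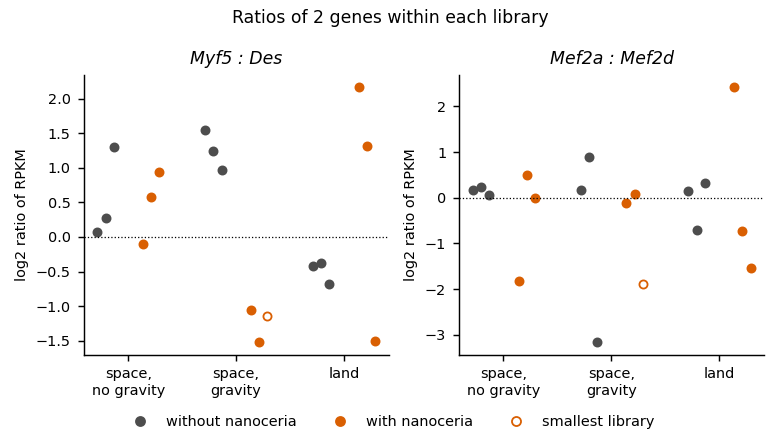
Log2 ratio of the levels per gene length of Myf5 to Des and Mef2a to Mef2d within each of the 18 libraries, by regime and nanoceria, with the open point for the smallest library. Myf5 to Des separates by nanoceria in space with gravity, where Myf5 and Des each did so in the larger libraries. Single libraries stand apart for Mef2a to Mef2d.

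Cdh15 (chr8:122847966-122867397, plus strand) had 122 counts in all and none in 3 libraries. Untreated libraries had 2, 18 and 6 counts without gravity, 10, 13 and 5 with gravity and 18, 0 and 0 on land. Treated libraries had 3, 2 and 5 without gravity, 7, 5 and 0 with gravity and 6, 21 and 1 on land. All groups overlapped. The space with gravity against land value was -0.96 ± 0.85, and 1.82 when land without nanoceria, replicate 1, was left out.

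Across the comparisons averaged over the other factor, none of the 7 tested genes passed the edgeR threshold. With nanoceria against without, 0% of all tested genes passed either, and 6 of the 7 values were above 0 with a median of 0.76, against a median of -0.03 over all genes. None of the 7 and 756 of all tested genes had an unadjusted p under 0.05. For space without gravity against space with gravity 0% of all genes passed, the median of the 7 was -0.23 against 0.04, and 1 of the 7 (Mef2d) and 676 of all genes had an unadjusted p under 0.05. For space with gravity against land 14.0% of all tested genes passed and none of the 7. The median of the 7 was -0.50 against -0.04, and 1 of the 7 (Myod1) and 3684 of all genes had an unadjusted p under 0.05. For space without gravity against land 5.25% of all tested genes passed, all 7 values were below 0 with a median of -0.98 against -0.02, and none of the 7 but 2859 of all genes had an unadjusted p under 0.05. The counts behind these shares of all genes, 1613 and 607, fell to as low as 459 (without treated space with gravity, replicate 1) and 82 (without untreated land, replicate 1) when 1 library was left out. Over the 9 pairwise comparisons 0.00577% of the gene tests passed, and none of the 7 genes.

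The 7 values of a comparison come from the same libraries and are not independent. Myod1 had the lowest value against land, -3.43 ± 1.59 in space with gravity (unadjusted p = 0.044, adjusted p = 0.145, edgeR) and -2.34 ± 1.34 in space without gravity (adjusted p = 0.289, edgeR). The first ranged from -4.83 to -0.23, and the second from -5.35 to 0.81, when each library was left out in turn. The second changed sign without land with nanoceria, replicate 3. With no filter on low counts the first passed the threshold (-3.27 ± 1.03, adjusted p = 0.023, edgeR). There 1470 of all genes passed as higher and 772 as lower. Six4 with nanoceria averaged over regimes also passed with no filter (1.59 ± 0.44, adjusted p = 0.039, edgeR), where 214 of all genes passed. In the main fit Six4 was at 1.63 ± 1.03, so its standard error moved more than its value. With DESeq2 size factors or the DESeq2 test the median over all genes moved to -0.39 or -0.37 for space with gravity against land, so values against land depend on the scaling by about that much. The share of the 6 abundant genes was also higher on land. With that share as a covariate, in space with gravity against land, Mef2a went from -0.50 to 0.82, Cdh15 from -0.96 to 0.66 and Myod1 from -3.43 to -6.64. None of the 7 passed in that fit, and 1 of all genes passed there, against 1613 without the covariate. The share differed between the regimes, so this fit cannot fully separate it from the regime.

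**Figure D5:**
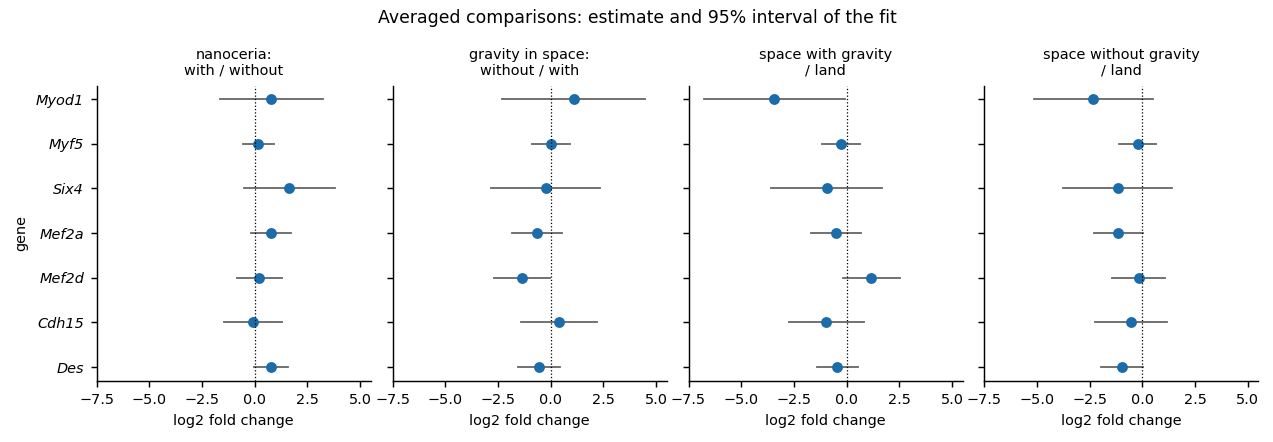
Log2 fold change of the 7 tested genes in the 4 averaged comparisons, with the 95% interval of the fit. Intervals are widest for Myod1 and Six4, and the intervals that leave out 0 are those of Myod1 in space with gravity against land and Mef2d for gravity in space.

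Partners and inhibitors of the helix-loop-helix factors were tested for 15 of 20 listed genes. In each comparison with land 1 of the 15 was lower and none higher. Of all tested genes 14.0% passed in space with gravity against land and 5.25% in space without gravity against land. The 1 gene was Id3, an inhibitor that binds E-proteins. Its log2 fold change was -3.95 ± 1.08 in space with gravity (adjusted p = 0.025, edgeR) and -3.32 ± 0.95 in space without gravity (adjusted p = 0.0499, edgeR). The median level of Id3 was 3.62 CPM on land with a highest of 76.2, against 1.21 in space without gravity and 0.501 in space with gravity, and the ranges overlapped. Without land with nanoceria, replicate 3, the values were -1.40 (adjusted p = 0.243) and -0.86 (adjusted p = 0.509, edgeR). The second call of Id3 was lost in 15 of 18 fits leaving out 1 library, and the first in 4. For nanoceria and for gravity in space none of the 15 passed. Mdfic, an inhibitor of myogenic factors, had the smallest p with nanoceria (-1.42 ± 0.37, adjusted p = 0.723, edgeR), and Tcf12, an E-protein, was at 0.79 ± 0.37.

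None of the 15 tested relatives and upstream regulators, of 29 listed, passed in any averaged comparison. Srf, a factor for muscle and growth genes, had the smallest p in both comparisons with land, at -1.41 ± 0.51 in space with gravity and -1.20 ± 0.49 in space without gravity. Eya3 was at -0.83 ± 0.37 in space without gravity against land. For gravity in space the smallest p were those of Tead4 at -2.21 ± 0.77 and Tead2 at -1.74 ± 0.75, and with nanoceria those of Vgll4 at -0.83 ± 0.42 and Foxk1 at 0.75 ± 0.42. Tead4 had only 0 to 6 counts in the libraries of space without gravity and 0 to 48 in those with gravity.

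Of 20 tested surface genes of myoblasts and satellite cells, of 23 listed, 1 was lower in space with gravity against land and none passed in the other 3 averaged comparisons. This was the receptor Notch2 (-1.46 ± 0.41, adjusted p = 0.027, edgeR), with a median of 35.2 CPM in space with gravity and 106 CPM on land. Of all tested genes 14.0% passed in that comparison, and Notch2 lost this call in 6 of 18 fits that each left out 1 library. The adhesion molecule Ncam1 was at 1.46 ± 0.57 in space without gravity against land (adjusted p = 0.124, edgeR). The chemokine receptor Cxcr4 was at -1.50 ± 0.63 there. Met, the receptor of hepatocyte growth factor, had the smallest p with nanoceria (-1.85 ± 0.50, adjusted p = 0.723, edgeR), followed by Vcam1 at -0.77 ± 0.68. For gravity in space Itga7 was at 0.86 ± 0.40 and Notch1 at -0.96 ± 0.46.

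All 6 genes listed as partners of desmin were tested. Vimentin (Vim) was lower in space with gravity against land (-1.39 ± 0.38, adjusted p = 0.026, edgeR), a call lost in 7 of 18 fits leaving out 1 library, and none of the others passed. In that comparison 14.0% of all tested genes passed. Median Vim levels were 287 CPM in space with gravity, 460 in space without gravity and 621 on land. In space without gravity against land Nes (nestin) was at 1.65 ± 0.76 and Synm (synemin) at -0.98 ± 0.49. For gravity in space Vim was at 0.91 ± 0.38, and with nanoceria the cytolinker Plec was at 0.90 ± 0.49.

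Differentiation genes other than Cdkn1a and Rb1 were near absent except in 1 library. Cdkn1a was abundant in all 3 regimes. Over 33 listed genes of the differentiated state (Cdkn1a and Rb1 left aside), land without nanoceria, replicate 1, held 1956 counts, 51.5% of the 3798 counts in all 18 libraries, and was the highest library for 28 of the 32 genes with counts. Their summed level there was 275 CPM, against 7.41 to 37.5 CPM in the other 16 larger libraries. Myog had 44 counts in this library, 12 in replicate 3 of the same group and at most 1 elsewhere. The fusion gene Mymk had 123 counts in it, creatine kinase (Ckm) 75, titin (Ttn) 308 and embryonic myosin (Myh3) 39. Replicate 1 had 8 Myod1 counts and 18 of Cdh15, while replicate 3, with the most Myod1, had a differentiation sum of 34.8 CPM. None of the 10 tested genes of the 35 on this list passed in any averaged comparison. Ttn was at -0.70 ± 1.37 in space with gravity against land, but with the smallest library left out it was lower there (-5.28 ± 1.29, adjusted p = 0.017, edgeR), the 1 gene of 13 then tested that passed. Of its land counts 308 were in replicate 1 without nanoceria and 0 to 6 in each other land library, and with that library left out as well, a fit added after seeing the data, it was at -3.61 ± 1.16 (adjusted p = 0.065, edgeR) and no longer passed. In the fit without the smallest library 1614 of all 12375 tested genes passed in space with gravity against land. With all libraries Acta1 had the smallest p against land, at -1.34 ± 0.70 in space with gravity and -1.49 ± 0.68 in space without gravity. Of its land counts 252 were in replicate 1 without nanoceria and 5 to 38 in each other land library. With nanoceria Tnnt3 was at -2.53 ± 1.06 and Acta1 at 1.20 ± 0.56, and for gravity in space Neb was at -2.99 ± 1.20 and Myl4 at -2.06 ± 1.01. Neb had only 0 to 4 counts in the libraries of space without gravity and 0 to 90 in those with gravity. Tnnt3 had 0 to 90 counts in the land libraries, with a median of 0.384 CPM.

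Proliferation genes were tested for 11 of 12 listed, and none passed in an averaged comparison. Their summed level was 87.4 to 157 CPM in space without gravity, 49.4 to 131 CPM in the 5 larger libraries of space with gravity and 59.3 to 225 CPM on land. Mki67 was at 1.96 ± 0.70 in space without gravity against space with gravity (adjusted p = 0.726, edgeR), and Aurka at 2.36 ± 0.80 in space without gravity against land (adjusted p = 0.083, edgeR). Cyclin D1 (Ccnd1) was at -1.19 ± 0.44 in space with gravity against land. Aurkb was at -2.09 ± 0.93 with nanoceria, 3.12 ± 1.25 in space with gravity against land and 3.39 ± 1.23 in space without gravity against land. Its land libraries held only 0 to 7 counts, with a median of 0 CPM.

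Markers of other lineages were listed for 24 genes, of which 2 (Adipoq and Sp7) had 0 counts in every library and 15 were at 0 in at least 9 of 18 libraries, among them Ptprc, Epcam, Krt8 and Tnmd. Others were present. Sox9, a cartilage and progenitor factor, had the most counts, with a median of 176 CPM in the 17 larger libraries, followed by the macrophage-associated Cd68 with 1770 counts (median 11.2 CPM, highest 41.8, at 0 in 1 library) and the bone factor Runx2 with 1081 (median 7.48 CPM, highest 21.8). Sox9, Runx2 and Cebpa had counts in all 18 libraries. The 23 genes other than Sox9 summed to 20.0 to 46.3 CPM in space without gravity, 31.1 to 47.4 CPM in space with gravity and 34.5 to 117 CPM on land. Of the 8 tested, 3 were lower in space with gravity against land and 3 in space without gravity against land. Over all tested genes 14.0% and 5.25% passed in these comparisons. Scx, a tendon factor, was at -2.49 ± 0.53 (adjusted p = 0.0096, edgeR) and -1.89 ± 0.49 (adjusted p = 0.035), and Cebpa, a fat cell factor, at -2.04 ± 0.52 (adjusted p = 0.018) and -2.31 ± 0.49 (adjusted p = 0.019). The remaining call was Bglap in space with gravity (adjusted p = 0.047, edgeR) and Tubb3 in space without gravity (adjusted p = 0.0498, edgeR), and Bglap lost it without the smallest library (adjusted p = 0.054). Scx and Cebpa passed in neither comparison with the share of the 6 abundant genes as a covariate. The calls of Id3, Notch2 and Vim were lost in that fit too, and 1 and 6 of all genes passed. Against land, with and without gravity in space, values in that fit were -4.58 and -3.66 for Id3 and -2.39 and -1.85 for Scx. Cebpa was at -1.44 and -2.01. In space with gravity Notch2 was at -2.08 and Vim at -0.60. Leaving out 1 library at a time, Scx lost its call in 9 of 18 fits in space without gravity, and Cebpa in 2 and 5 of 18. The part of these markers in the values of the 9 genes was not tested.

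The tested genes whose levels followed Myod1 most closely over the 17 larger libraries were Serpine2, Scd1 and Pcdh7. Likeness was the root mean square difference of centred log2 CPM, 0.75 for Serpine2 against a median of 1.81 over all tested genes. For Des they were Ddx21, Wrb and Adprh, at 0.48, 0.55 and 0.56 against a median of 1.20. For Myf5, added after its values had been seen, they were Mrtfb, Efcab14 and Tspyl1, at 0.59, 0.60 and 0.62 against a median of 1.29. A gene whose level did not vary would score 1.58 for Myod1, 0.81 for Des and 0.93 for Myf5. None of the other 8 genes of the list was among these most similar genes.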

How the data were processed

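Polyadenylated RNA of 18 libraries was analysed, 3 for each of 6 groups, with groups from the class letter in the labels and replicate numbers in record order. The deposited files hold raw counts per Ensembl gene with exon coordinates and length, per the file headers. The submitters' processing notes name CASAVA, Trimmomatic 0.36.29, STAR, Subread, featureCounts and GRCm38.p6. Use of strand and read filters are not given in the sources used here. The 18 small RNA samples of the series were not analysed here.

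The counts as deposited were fitted with edgeR 4.0.16 in R 4.3.3: filterByExpr over 6 groups (11558 genes), TMM scaling, 1 group-means model over all 18 libraries with 12 residual degrees of freedom, robust quasi-likelihood tests, and Benjamini-Hochberg adjustment over all tested genes at 0.05. CPM used the TMM-scaled totals, RPKM the deposited lengths. Log2 fold changes carry the standard error of the fit, first group named over second. The fit was tested on simulated data with a smaller spread between libraries than these data (common biological coefficient of variation 0.659) and no outlying library. That test does not show how the fit does at the spread of Six4 or Myod1. Promoters came from RefSeq.

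The 9 genes, the other gene lists, the tests and the alternatives were chosen with earlier results of these data known. Named were the 9 genes, up to 2 genes per list, comparison and direction with the smallest p past the threshold (otherwise the 2 smallest p, by value), and 3 genes most like Myod1 and Des; 1 gene so named is not reported here. Alternatives were DESeq2 1.42.0 size factors, the DESeq2 test, removal of the 6 abundant genes, no filter, a mean of at least 50 counts, the compared groups only, that share as a covariate, and leaving out the smallest or each library.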

Additional observations from a re-analysis of the deposited data

How the results depend on the processing

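No paired analysis was possible because replicate numbers follow the order of the records and mark no shared unit. No gene of the 9 passed the edgeR threshold in any of the 18 fits that each left out 1 library, so each count stayed between 0 and 0. With the DESeq2 test 1 passed in space without gravity against land (Des) and 3 of the pairwise tests (Myf5 with nanoceria on land and in treated space with gravity against land, and Des in treated space without gravity against land). With no filter on low counts 1 passed with nanoceria averaged over regimes (Six4), where 214 of all genes passed. In space with gravity against land 1 passed (Myod1), where 1470 of all genes passed as higher and 772 as lower. So did 1 in the test of the nanoceria effect between regimes (Six4), where 551 of all genes passed, and 6 of the pairwise tests. Of these 6, Six4 passed with nanoceria on land and in both treated comparisons with land. Myod1 passed in both untreated comparisons with land, and Mef2a in treated space without gravity against land. The cause was not tested. The share of all pairwise gene tests that passed in these alternatives was not counted. The number of genes tested with no filter is not given here, so the counts with no filter carry no share. Over all genes, counts that moved more than 1.5 times with all libraries were 2691 and 1524 with DESeq2 for space with and without gravity against land (1613 and 607 in the edgeR fit), 1072 and 387 with the compared groups only, and 1 and 6 with the share of abundant genes as covariate. With no filter 1466 genes passed where space without gravity was set against land, and 214 passed for nanoceria, 229 for gravity in space and 551 for the test between regimes, and with DESeq2 1, 11 and 8 passed in these last 3. When 1 library was left out, counts over all genes were 459 to 1614 for space with gravity against land and 82 to 713 for space without gravity against land. They fell by over 1.5 times in 6 and 9 of 18 fits. Those 6 were without untreated space with gravity replicate 1 (916) or 2 (750), treated space with gravity replicate 1 (459), untreated land replicate 1 (864) or 2 (856), or treated land replicate 3 (1027). The 9 were without untreated space without gravity replicate 1 (86) or 3 (101), its treated replicate 1 (153) or 3 (177), untreated space with gravity replicate 1 (364) or 2 (386), untreated land replicate 1 (82) or 2 (89), or treated land replicate 3 (99). With DESeq2 size factors the split for space with gravity against land was 628 higher and 1558 lower, against 834 and 779.

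Signs of values that passed no threshold turned in 8 cases among the other alternatives. Myf5 for gravity in space was -0.015 with no filter and -0.060 without the smallest library. With the share of abundant genes as a covariate Cdh15 was 0.037 with nanoceria, -0.57 for gravity in space, 0.66 in space with gravity against land and 0.090 in space without gravity against land, Six4 was 1.17 for gravity in space, and Mef2a was 0.82 in space with gravity against land. Signs also turned for 35 values from fits leaving out 1 library. With nanoceria averaged over regimes the ranges were Cdh15 from -0.34 to 1.76, Mef2a from -0.10 to 0.97, Mef2d from -0.16 to 0.97, Myf5 from -0.056 to 0.36, Myod1 from -1.28 to 1.91 and Six4 from -0.59 to 2.76. For gravity in space the ranges were Cdh15 from -0.091 to 0.60, Myf5 from -0.29 to 0.23, Myod1 from -2.02 to 2.51 and Six4 from -1.40 to 0.14. For space with gravity against land the ranges were Cdh15 from -1.17 to 1.82, Des from -0.61 to 0.17, Mef2a from -0.74 to 0.86 and Six4 from -1.31 to 2.41. For space without gravity against land the ranges were Cdh15 from -0.99 to 2.21, Mef2a from -1.40 to 0.20, Mef2d from -0.75 to 0.038, Myod1 from -5.35 to 0.81 and Six4 from -2.33 to 2.18. With nanoceria on land the ranges were Mef2a from -0.51 to 2.67 and Six4 from -2.39 to 7.66. Six4 and Mef2a turned without treated land replicate 1, and Cdh15 against land without untreated land replicate 1. Low counts limit Myod1, Pax7, Msc and Cdh15 most, since most libraries hold under 20 counts of each.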
